A study of Mus musculus with 20 samples.

Results

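Fast-spiking parvalbumin interneuron genes are described here as a set of 7 genes among the 46078 genes counted in each library: Pvalb, Syt2, Kcnab3, Kcnc1, Kcnc2, Kcns3 and Erbb4. The genes were listed by symbol with earlier results of these data in view, and they were chosen from the difference between peri-infarct and contralateral tissue. That difference is therefore given below as a description, without p-values of the 7 genes. Calls of the 7 genes in it are only counted beside those over all genes.

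Parvalbumin basket cells are GABAergic interneurons of the cortex that fire brief action potentials at high rates and release GABA onto the cell bodies of pyramidal neurons. Pvalb encodes the calcium buffer parvalbumin. Syt2 encodes synaptotagmin 2, a fast calcium sensor for vesicle release. Kcnc1 and Kcnc2 encode Kv3.1 and Kv3.2, the potassium channels that repolarize these cells quickly, Kcns3 encodes the modifier subunit Kv9.3, and Kcnab3 encodes a Kv beta subunit. Erbb4 encodes a neuregulin receptor that is found in several classes of interneuron. None of the 7 transcripts is restricted to basket cells.

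RNA was sequenced from brain tissue of C57BL/6J wild-type male mice aged 18 months, collected 7 weeks after DH stroke, in which occlusion of the distal middle cerebral artery is combined with hypoxia. All mice had a stroke, so the contralateral hemisphere is not tissue of an uninjured mouse. Starting 1 week after stroke, mice were injected subcutaneously 3 times per week for 6 weeks with vehicle (PBS) or with 4 g/kg HPBCD (hydroxypropyl-β-cyclodextrin, a cyclic oligosaccharide that binds cholesterol). The infarct was cut away by eye, and the tissue next to it and the matching contralateral tissue were taken, giving 4 groups of 5 libraries.

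Gene counts per library were 14445021 to 22171627. Values are given as CPM, which are counts relative to the library size after TMM scaling of the 20 libraries. Treatment groups are those of the labels. The study's text states, for some genes, a direction under HPBCD in peri-infarct tissue. Of 33 such genes 32 could be tested here, and all 32 moved in the opposite direction in the libraries as labelled, 18 of them past the threshold. Either the treatment labels or the directions in the study's text may therefore be exchanged, which was not tested. The 32 genes bear on peri-infarct libraries only. An exchange of the labels in both regions would turn the sign of each difference between treatments and of each interaction given below. Vehicle and HPBCD name the labels throughout. In contralateral tissue, the summed level of 11 striatal projection neuron genes was 3993 CPM in vehicle replicate 1 and 238 to 320 CPM in the other 9 libraries. The summed level of 8 ependymal and choroid plexus genes was 642 CPM in HPBCD contralateral replicate 3. It was 7.17 to 14.4 CPM in the other libraries of that group.

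The promoter sequences are shown for 3 of the genes on which the results turn, as the 250 bases before the RefSeq start on GRCm38.p6, with motif matches in capitals. The windows are chr15:78206401-78206650 (minus strand) for Pvalb, chr1:134646362-134646611 (plus strand) for Syt2 and chr7:46396218-46396467 (plus strand) for Kcnc1. RefSeq promoters were matched for 6 of the 7 genes.
Pvalb: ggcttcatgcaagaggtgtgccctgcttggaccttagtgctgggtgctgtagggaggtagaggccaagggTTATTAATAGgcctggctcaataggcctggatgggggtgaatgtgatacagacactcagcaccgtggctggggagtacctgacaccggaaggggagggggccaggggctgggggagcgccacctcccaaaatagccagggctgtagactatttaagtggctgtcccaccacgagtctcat
Syt2: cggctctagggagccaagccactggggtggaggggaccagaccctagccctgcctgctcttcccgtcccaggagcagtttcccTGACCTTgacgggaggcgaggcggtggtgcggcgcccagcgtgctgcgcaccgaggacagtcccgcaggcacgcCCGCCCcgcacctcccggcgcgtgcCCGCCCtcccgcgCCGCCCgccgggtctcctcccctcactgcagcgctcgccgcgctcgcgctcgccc
Kcnc1: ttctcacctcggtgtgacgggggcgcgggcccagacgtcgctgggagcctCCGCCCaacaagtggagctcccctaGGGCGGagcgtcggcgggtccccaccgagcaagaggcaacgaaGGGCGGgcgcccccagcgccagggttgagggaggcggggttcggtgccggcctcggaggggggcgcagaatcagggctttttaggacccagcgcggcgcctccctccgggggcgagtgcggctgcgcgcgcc
The 5 motifs were searched on both strands: TATAAA (the TATA box), GGGCGG (the GC box), AAGGTCA (the half-site of estrogen-related receptors), TGACGTCA (the cyclic AMP response element) and the MEF2 consensus. The Pvalb window held 1 site that matched MEF2 on both strands, 180 to 171 bases before the start, a match that 2.92% of 32851 promoters of the same length held. The Syt2 window held 3 GC boxes and 1 AAGGTCA, and the Kcnc1 window held 3 GC boxes. A GC box was found in 32.7% and AAGGTCA in 4.08% of all promoters, against 12.4% for TATAAA and 1.55% for TGACGTCA. No capitals mark overlapping motifs of different kinds. Syt2 and Kcnc1 had GC contents of 76% and 74.4%, above the 58.4% of Pvalb and the median of 52.4% over all promoters. Kcns3 held 1 GC box, and Kcnc2 and Erbb4 held none of the 5 motifs in this window. No motif was shared by Pvalb and the other 2 promoters shown, and these matches are letters in a window, not bound sites.

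The levels of the 7 genes were first set in order per kilobase of annotated exon, since longer transcripts collect more reads. In vehicle contralateral tissue Pvalb was highest at 97.2 ± 34.0 CPM per kb (SD, n = 5 here and below). Kcnab3 followed at 37.0 ± 13.0, Kcnc1 at 20.9 ± 2.0, Kcnc2 at 13.6 ± 2.15, Syt2 at 10.6 ± 3.27, Erbb4 at 5.70 ± 1.39 and Kcns3 at 2.39 ± 0.300 CPM per kb. In this order the values of Pvalb and Kcnab3, Kcnab3 and Kcnc1, Kcnc2 and Syt2, and Syt2 and Erbb4 overlapped, and those of Kcnc1 and Kcnc2 and of Erbb4 and Kcns3 did not. In HPBCD peri-infarct tissue the order was different: Pvalb 16.3 ± 7.00, Kcnc1 8.49 ± 2.36, Kcnc2 6.70 ± 2.39, Kcnab3 5.66 ± 2.65, Erbb4 4.26 ± 0.85, Syt2 2.60 ± 0.621 and Kcns3 1.05 ± 0.645 CPM per kb. There, the values of each pair of neighbours overlapped except those of Syt2 and Kcns3, and in replicate 1 Kcnc1 (9.87) was above Pvalb (9.42 CPM per kb).

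**Figure D1:**
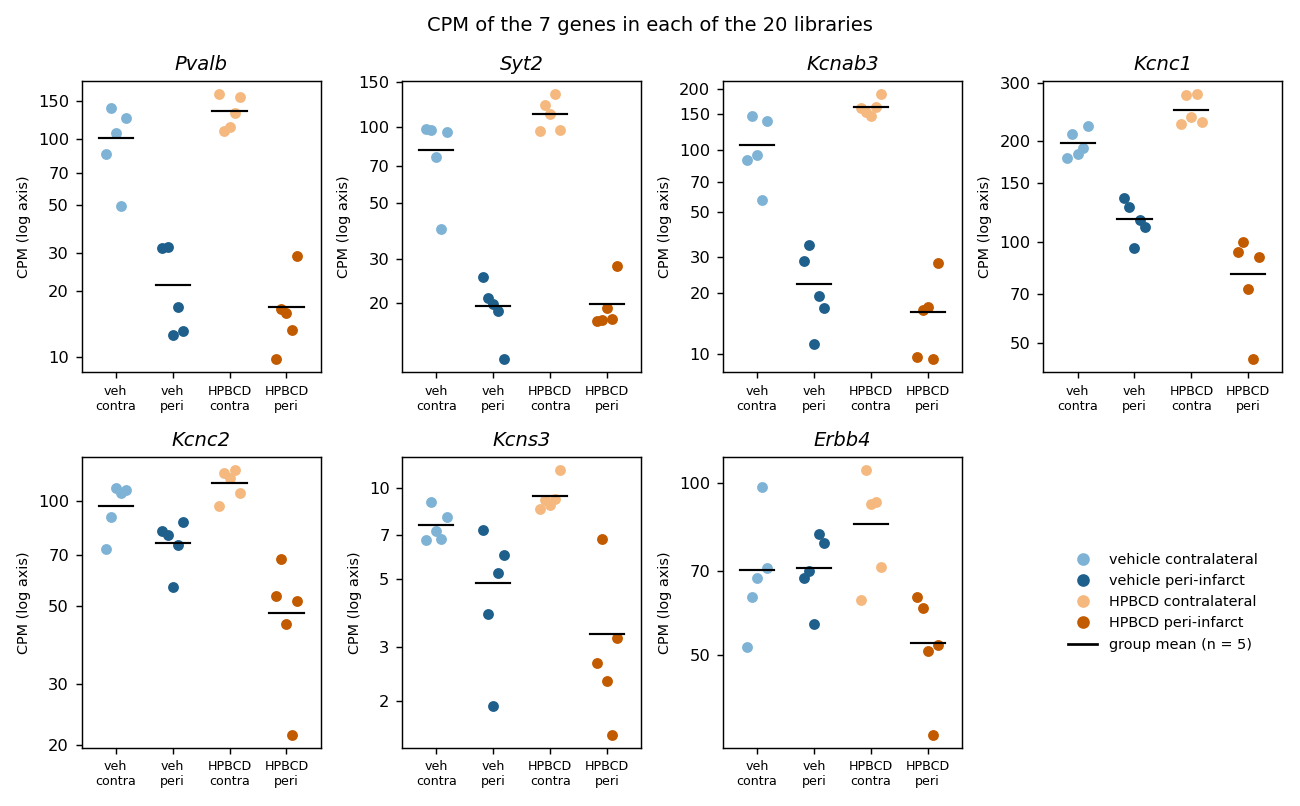
CPM on a log axis for each of the 7 genes, 1 point per library in 4 groups of 5, with black lines at the group means. Peri-infarct points of Pvalb, Syt2, Kcnab3 and Kcnc1 lie below all contralateral points of the same treatment, whereas Erbb4 ranges from 51.7 to 98.3 CPM in vehicle contralateral and from 56.8 to 81.5 CPM in vehicle peri-infarct libraries.

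The question of the first comparison was how tissue beside the infarct differed from the opposite hemisphere in mice labelled vehicle. Pvalb, Syt2 and Kcnab3 were 4.78-fold, 4.21-fold and 4.82-fold lower beside the infarct, Kcnc1 was 1.70-fold lower, and Erbb4 was level. The 3 genes that lay lowest relative to the other hemisphere thus encode a calcium buffer, a release sensor and an auxiliary channel subunit. In this bulk tissue, fewer cells of a type and less RNA per cell cannot be told apart.

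Pvalb (ENSMUSG00000005716, chr15:78191114-78206400, minus strand; coordinates of genes are those of GENCODE M21 on GRCm38) was at 85.3, 139, 106, 49.3 and 125 CPM in vehicle contralateral replicates 1 to 5. Beside the infarct the same mice had 31.7, 32.1, 12.6, 17.0 and 13.1 CPM. The groups did not overlap, and the lowest contralateral library, replicate 4, was still above the highest peri-infarct library. The log2 fold change was -2.26 (SE 0.34). Syt2 (ENSMUSG00000026452, chr1:134646677-134762593, plus strand) was at 98.0, 96.9, 76.1, 39.5 and 95.5 CPM contralaterally. It was at 25.6, 21.1, 19.9, 18.6 and 12.1 CPM beside the infarct, with no overlap and again with the lowest contralateral value in replicate 4. Its log2 fold change was -2.07 (SE 0.25).

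Among the channel genes, Kcnab3 (ENSMUSG00000018470, chr11:69326258-69333042, plus strand) ran from 57.2 to 148 CPM contralaterally and from 11.2 to 34.4 CPM beside the infarct, a log2 fold change of -2.27 (SE 0.32). Its exons overlap those of Kcnab3os on the opposite strand over 147 bp, and the strand setting of the counting is not given in the sources used here, so its counts are uncertain to that extent. Kcnc1 (ENSMUSG00000058975, chr7:46396497-46438704, plus strand) was at 179, 211, 183, 191 and 223 CPM contralaterally. Beside the infarct it was at 135, 127, 95.9, 117 and 111 CPM, so that the groups were apart but closer together than those of Pvalb, Syt2 and Kcnab3. The log2 fold change of Kcnc1 was -0.76 (SE 0.10).

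Kcnc2 (ENSMUSG00000035681, chr10:112271121-112467024, plus strand) averaged 96.8 ± 15.4 CPM contralaterally and 76.1 ± 11.6 CPM beside the infarct, and the groups overlapped. Kcns3 (ENSMUSG00000043673, chr12:11090202-11151056, minus strand) was the least counted gene, with 28 to 203 counts per library, and averaged 7.56 ± 0.948 against 4.86 ± 2.05 CPM with overlapping groups. Erbb4 (ENSMUSG00000062209, chr1:68032186-69108059, minus strand) averaged 70.4 ± 17.2 against 71.1 ± 9.71 CPM. The log2 fold changes of these 3 genes were -0.36 (SE 0.13), -0.65 (SE 0.27) and -0.00072 (SE 0.15). By edgeR, 4 of the 7 genes were called lower (adjusted p-value under 0.05), where 9.7% of all genes tested were called lower. The groups did not overlap for 4 of the 7, where this held for 6.7% of all genes in the lower direction. These counts describe the choice of the genes and nothing is read from them. Without vehicle contralateral replicate 1, the library high in striatal genes, 5 genes were called lower, the added gene being Kcnc2, in a fit that called 3077 of 16018 genes in either direction, against 3195 of 15801 with all libraries.

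In mice labelled HPBCD, all 7 genes were lower beside the infarct than in the opposite hemisphere. Kcnab3 was at 0.0999 of its contralateral level. Pvalb was 7.92-fold lower, Syt2 5.68-fold, Kcnc1 3.09-fold, Kcns3 2.82-fold, Kcnc2 2.33-fold and Erbb4 1.60-fold. Pvalb was at 160, 108, 114, 132 and 156 CPM in contralateral and at 9.81, 16.6, 15.9, 13.3 and 29.1 CPM in peri-infarct replicates 1 to 5. The highest peri-infarct library, replicate 5, was far under every contralateral library. Syt2 was at 96.0, 122, 112, 135 and 97.2 CPM contralaterally and at 17.1, 17.2, 19.3, 17.4 and 28.2 CPM beside the infarct. Kcnab3 ran from 147 to 188 CPM contralaterally and from 9.5 to 28.2 CPM beside the infarct. Its highest peri-infarct library, like those of Pvalb and Syt2, was replicate 5.

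Kcnc1 was at 226, 276, 237, 277 and 229 CPM in the contralateral libraries labelled HPBCD and at 93.4, 100.1, 72.6, 44.8 and 90.5 CPM in the peri-infarct libraries. Kcnc2 averaged 112 ± 10.8 against 47.8 ± 17.1 CPM and Kcns3 9.42 ± 1.17 against 3.31 ± 2.04 CPM, both without overlap. Peri-infarct replicate 4 was the lowest library for the 4 channel genes and Erbb4, whereas Pvalb and Syt2 were lowest in replicate 1. Erbb4 averaged 84.7 ± 17.4 against 52.6 ± 10.5 CPM and was the 1 gene whose groups overlapped. The log2 fold changes were -2.99 (SE 0.25) for Pvalb, -2.51 (SE 0.15) for Syt2 and -3.32 (SE 0.26) for Kcnab3. For Kcnc1, Kcnc2, Kcns3 and Erbb4 they were -1.63 (SE 0.19), -1.22 (SE 0.23), -1.50 (SE 0.32) and -0.68 (SE 0.17). All 7 genes were called lower, where 24.3% of genes tested were, and 6 were without overlap, where 18.3% of genes were; again nothing is read from these counts.

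**Figure D2:**
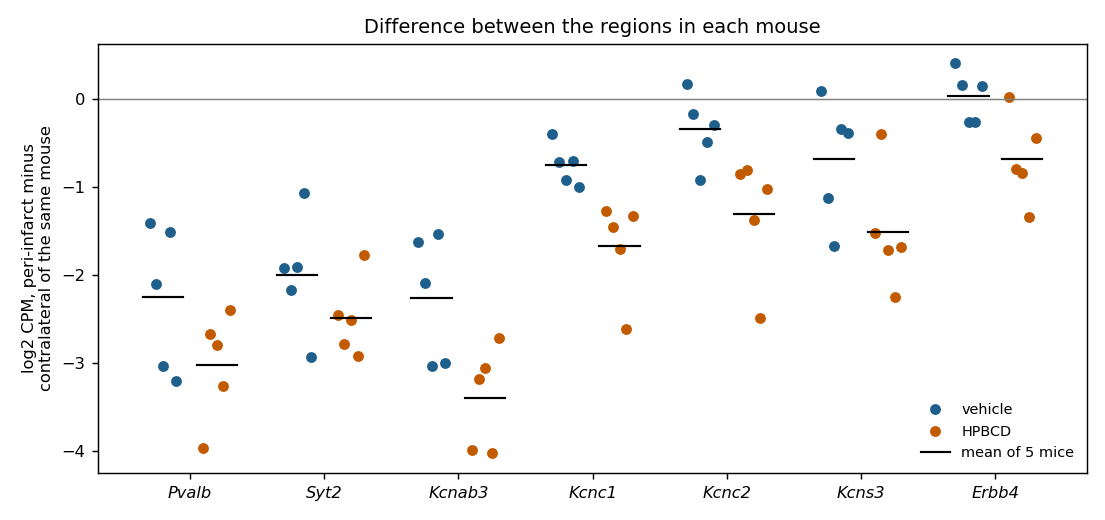
Difference in log2 CPM between peri-infarct and contralateral tissue of the same mouse for each gene, 1 point per mouse, with black lines at the means of 5 mice per treatment. Pvalb, Syt2, Kcnab3 and Kcnc1 lie below 0 in all 5 mice of each treatment, and the Kcnc1 differences of mice labelled HPBCD (-2.61 to -1.27) all lie below those of mice labelled vehicle (-1.01 to -0.40).

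Within mice, the region difference was negative in 5 of 5 mice of each treatment for Pvalb, Syt2, Kcnab3 and Kcnc1. It ran from -3.21 to -1.41 for Pvalb in mice labelled vehicle and from -3.96 to -2.40 in mice labelled HPBCD, on the log2 CPM scale. For Kcnc2 and Kcns3 it was negative in 4 of 5 mice labelled vehicle and in 5 of 5 labelled HPBCD. For Erbb4 it was negative in 2 of 5 and in 4 of 5. The mice that had the smallest Pvalb difference under vehicle, 1 and 4, also had the smallest Kcnab3 differences, at -1.63 and -1.54.

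Genes of other cells moved with these differences. The summed level of 12 pan-neuronal genes was 11194 to 12956 CPM in vehicle contralateral and 7328 to 10075 CPM in vehicle peri-infarct libraries. In libraries labelled HPBCD it was 12938 to 13846 CPM contralaterally and 4025 to 7337 CPM beside the infarct. The 10 reactive astrocyte genes summed to 234 to 409 and 773 to 3937 CPM in vehicle, and to 191 to 269 and 3384 to 6957 CPM in HPBCD libraries, in the same order of regions. Of these, 9 of 10 were called higher beside the infarct in vehicle and 10 of 10 in HPBCD libraries. Summed levels of 12 microglia and macrophage genes, called higher in 11 and 12 of 12, reached 2549 and 3194 CPM beside the infarct and stayed at or under 534 CPM contralaterally. The 11 striatal genes were at 401 to 2268 CPM in vehicle peri-infarct, 799 to 2346 CPM in HPBCD peri-infarct and 247 to 297 CPM in HPBCD contralateral libraries. In HPBCD libraries 9 of 9 oligodendrocyte genes were called higher beside the infarct (5786 to 7268 against 13038 to 20029 summed CPM) and 9 of 9 fibroblast and meningeal genes (93.2 to 191 against 589 to 1557 CPM, median log2 fold change 3.50), as were 11 of 11 striatal genes. In vehicle libraries 0 of 9, 2 of 9 and 0 of 11 were, and the oligodendrocyte sums overlapped (4688 to 12110 against 6316 to 15273 CPM). None of the marker genes in these 6 lists was at the floor of 3 counts in all groups, and the part of other cells in the member differences was not tested.

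The members were next set against neuronal genes measured in the same libraries. Relative to the mean log2 CPM of 10 genes shared by GABAergic neurons (among them Gad1, Gad2 and Slc32a1), the region difference in mice labelled vehicle was -2.12 for Pvalb, -1.87 for Syt2 and -2.13 for Kcnab3. The list mean itself differed by -0.13. Relative to the same list the difference was -0.62 for Kcnc1, -0.56 for Kcns3, -0.21 for Kcnc2 and 0.17 for Erbb4. In mice labelled HPBCD the list mean differed by -0.32, and the relative differences were -2.70, -2.17 and -3.07 for Pvalb, Syt2 and Kcnab3. The sum of the 10 GABAergic genes overlapped between vehicle regions (983 to 1225 CPM beside the infarct against 1187 to 1554 CPM), but not between HPBCD regions (891 to 1125 against 1259 to 1546 CPM). The highest sum, 1554 CPM, was that of vehicle contralateral replicate 1, the library high in striatal genes. The list is one of GABAergic neurons and not of interneurons only. The part of striatal tissue in the relative differences was not tested. Of the 10 genes, 2 were called lower in vehicle libraries, and 6 lower and 1 higher in HPBCD libraries. Gad1, the main GABA-synthesizing enzyme of the soma, was called lower in both treatments (343 to 225 mean CPM in vehicle and 398 to 178 in HPBCD libraries), whereas Gad2 did not pass the test in either (163 and 164, and 160.0 and 165 mean CPM).

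**Figure D3:**
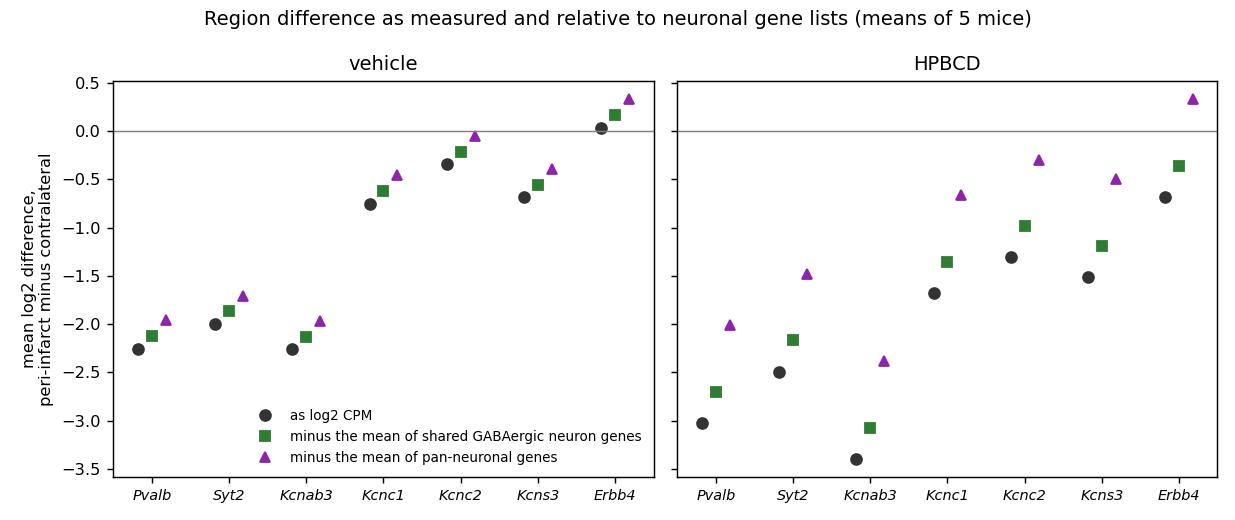
Mean log2 difference between peri-infarct and contralateral tissue over 5 mice per treatment, as log2 CPM (circles) and after subtracting the mean of the shared GABAergic genes (squares) or of the pan-neuronal genes (triangles) in the same library. Pvalb, Syt2 and Kcnab3 stay at -1.48 or below on each scale, and Erbb4 relative to pan-neuronal genes is at 0.33 in both treatments.

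Relative to the 12 pan-neuronal genes, whose mean differed by -0.30 in mice labelled vehicle and by -1.01 in mice labelled HPBCD, the Pvalb difference was -1.96 and -2.01 in the respective mice. It was -1.70 and -1.48 for Syt2 and -1.96 and -2.38 for Kcnab3. Kcnc1 was at -0.46 and -0.66, Kcns3 at -0.39 and -0.50, Kcnc2 at -0.05 and -0.30, and Erbb4 at 0.33 in both. The sign of Erbb4 and, in a fit scaled to these genes, of Kcnc2 in vehicle libraries (0.11) thus depended on the scaling, whereas Pvalb, Syt2, Kcnab3 and Kcnc1 were lower under each scaling tried. That scaling moved the median log2 fold change of all genes by 0.48 in vehicle and by 1.25 in HPBCD libraries.

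The tested comparison asked whether the genes differed between treatments in peri-infarct tissue. The same libraries entered the region differences from which the genes were listed, so this comparison may not be independent of that choice. The same holds for the comparison in contralateral tissue below. By edgeR, 0 of the 7 genes were called at an adjusted p-value under 0.05, where 21.4% of 16224 genes were called in either direction. Kcnc1, Kcnc2 and Erbb4 had unadjusted p-values under that value, 3 of 7 in all, as did 6357 of the 16224 genes. The Kv3.1 gene Kcnc1 averaged 117 ± 15.2 CPM in libraries labelled vehicle and 80.3 ± 22.3 CPM in libraries labelled HPBCD, a log2 fold change of -0.55 (95% interval -0.97 to -0.13, edgeR adjusted p = 0.0616). For Kcnc2 the value was -0.67 (-1.21 to -0.13, adjusted p = 0.0692) and for Erbb4 -0.44 (-0.76 to -0.11, adjusted p = 0.0555). The groups of each of these 3 genes overlapped, as did those of the other 4, and 5.97% of genes were lower without overlap.

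The calcium buffer gene Pvalb averaged 21.3 ± 9.82 CPM beside the infarct in libraries labelled vehicle and 16.9 ± 7.29 CPM in those labelled HPBCD, a log2 fold change of -0.34 (95% interval -1.08 to 0.41, edgeR adjusted p = 0.484). Syt2 was 19.4 ± 4.88 and 19.8 ± 4.75 CPM, with a value of 0.02 (-0.41 to 0.45, adjusted p = 0.946). Kcnab3 had a value of -0.45 (-1.21 to 0.31, adjusted p = 0.351) and Kcns3 of -0.56 (-1.46 to 0.35, adjusted p = 0.340). The intervals of Pvalb and Kcnab3 thus include no difference as well as decreases down to -1.08 and -1.21. The spread between mice was wide for these genes, with values of Pvalb from 12.6 to 32.1 CPM in vehicle and from 9.81 to 29.1 CPM in HPBCD libraries.

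The count of 0 depended on the tool and on single libraries. DESeq2 and limma voom each called Kcnc1, Kcnc2 and Erbb4 lower in libraries labelled HPBCD, with DESeq2 adjusted p-values of 0.0314, 0.0344 and 0.0302. Without vehicle peri-infarct replicate 3 edgeR called the same 3 genes, without HPBCD peri-infarct replicate 2 it called 4 (Kcns3 was added), and without HPBCD peri-infarct replicate 1 it called 1 (Erbb4). Over all genes these fits called 4687 of 16439, 5339 of 16428 and 3480 of 16374 genes, against 3471 of 16224 with all libraries, and DESeq2 and limma voom called 4719 and 6012 genes. The share of genes called over all genes itself rested on single libraries: 823 of 16354 genes were called without HPBCD peri-infarct replicate 3, and 1720 and 2115 without its replicates 4 and 5. Without vehicle peri-infarct replicates 1, 2 and 5 the counts were 1437, 1303 and 2164, and in these 6 fits 0 of the 7 genes were called. When libraries were scaled to the pan-neuronal genes, Kcnc1 was at 0.03 and Erbb4 at 0.16, and Syt2 was called higher in libraries labelled HPBCD (0.66, edgeR adjusted p = 0.0329), in a fit that called 10848 of 16224 genes. Of the 12 pan-neuronal genes, 11 were called lower in HPBCD than in vehicle peri-infarct libraries (median log2 fold change -0.64), and 9 of 9 fibroblast and meningeal genes were called higher (median 2.32, at 129 to 483 against 589 to 1557 summed CPM). The part of these cells in the differences between treatments was not tested.

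**Figure D4:**
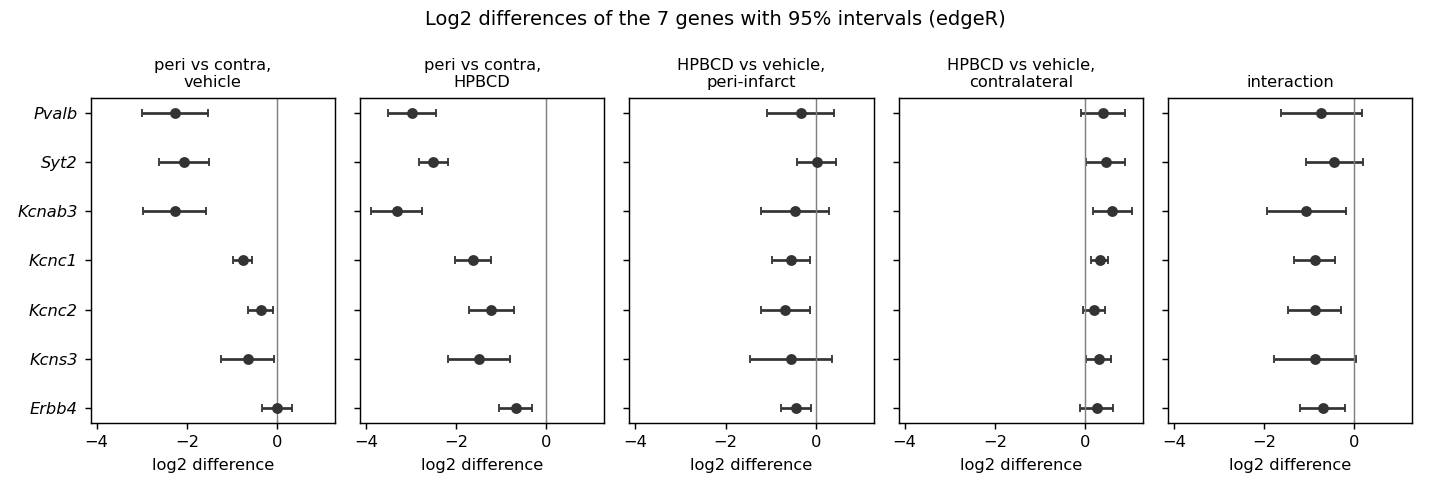
Log2 differences of the 7 genes in 5 comparisons, with 95% intervals from edgeR as horizontal bars and 0 as the grey line. Intervals of Pvalb and Syt2 include 0 between treatments in peri-infarct tissue (-1.08 to 0.41 and -0.41 to 0.45), and the interaction of Kcnc1 lies between -1.33 and -0.43.

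In contralateral tissue all 7 genes had higher means in libraries labelled HPBCD, where 52.1% of all genes tested had negative log2 fold changes. Several of the 7 genes were correlated within groups, so their signs are not separate observations. By edgeR 0 of the 7 were called, as were 0% of the 15469 genes tested. Before adjustment 1224 genes had p-values under 0.05, among them 4 of the 7. DESeq2 and limma voom also called 0 of the 7, and 49 and 0 of all genes. Kcnab3 had the highest value, 0.61 (95% interval 0.17 to 1.04, edgeR adjusted p = 0.547), from 106 ± 37.4 to 162 ± 15.8 CPM. Pvalb was at 0.40 (-0.09 to 0.88, adjusted p = 0.685) and Syt2 at 0.46 (0.02 to 0.90, adjusted p = 0.611). Kcnc1 was the 1 gene whose groups did not overlap, with 179 to 223 CPM in vehicle and 226 to 277 CPM in libraries labelled HPBCD. Its log2 fold change was 0.33 (0.14 to 0.51, adjusted p = 0.443), and 0.957% of genes were higher without overlap. Kcnc2, Kcns3 and Erbb4 were at 0.20, 0.31 and 0.26. In the same comparison 9 of 9 oligodendrocyte genes (median -0.45) and 11 of 11 striatal genes (median -1.76) had negative log2 fold changes, of which 0 were called. The oligodendrocyte genes summed to 11654 to 12110 CPM in vehicle contralateral replicates 1, 3 and 5, to 4688 and 6337 CPM in replicates 4 and 2, and to 5786 to 7268 CPM in HPBCD contralateral libraries. The part of these in the member values was not tested.

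A region by treatment interaction was fitted to ask whether the difference between regions was itself different in mice labelled HPBCD. It is built from the region differences from which the genes were listed, so its p-values are not independent of that choice and support nothing about the genes. By edgeR, 1 of the 7 genes was called lower, where 4.38% of 16758 genes were. This was Kcnc1, with an interaction of -0.88 (SE 0.22, 95% interval -1.33 to -0.43, edgeR adjusted p = 0.0234): its region difference was -0.76 in vehicle and -1.63 in HPBCD libraries, with higher contralateral and lower peri-infarct means in HPBCD libraries. All 7 estimates were negative, as were 49.1% of those over all genes. Kcnc2 was at -0.88 (-1.46 to -0.30, adjusted p = 0.0509), Erbb4 at -0.70 (-1.20 to -0.20, adjusted p = 0.0677) and Kcnab3 at -1.06 (-1.95 to -0.18, adjusted p = 0.106). Kcns3 was at -0.87 (adjusted p = 0.190), Pvalb at -0.74 (adjusted p = 0.264) and Syt2 at -0.44 (adjusted p = 0.351).

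The Kcnc1 estimate ran from -0.95 to -0.73 when 1 library was left out, and did not pass the threshold with scaling to the pan-neuronal genes (-0.16, edgeR adjusted p = 0.273). The mean of the pan-neuronal genes was lower beside the infarct by 0.30 in vehicle and by 1.01 in HPBCD libraries, and 8 of these 12 genes were called in the interaction. Kcnc4, which encodes Kv3.4, had an interaction of -1.12 (edgeR adjusted p = 0.023).

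Genes of basket cells and of the members' pathways were taken from lists, some of which hold members. Of 16 other genes known from fast-spiking basket cells, 9 were called lower and 1 higher beside the infarct in vehicle libraries (median log2 fold change -0.46, against 0.01 over all genes). In HPBCD libraries 11 were called lower and 3 higher (median -0.94). The 3 higher genes were Tac1, Scn4b and Pthlh. In vehicle contralateral tissue, where replicate 1 was high in striatal genes, Tac1 was at 29.0 ± 40.3 and Scn4b at 230 ± 288 CPM. The part of striatal tissue in their values was not tested. Vamp1, a vesicle SNARE of fast synapses, went from 165 to 49.6 mean CPM in vehicle libraries, Nefh, the heavy neurofilament, from 94.6 to 35.8 and the sodium channel gene Scn1a from 196 to 89.3. Sox6, a transcription factor of this lineage, was higher, from 12.1 to 17.3 mean CPM. Between treatments in peri-infarct tissue, 1 of the 16 rose (Pthlh, 1.09, edgeR adjusted p = 0.0292) and 1 fell (Cplx1, -0.45, adjusted p = 0.0481) in libraries labelled HPBCD, with a median of -0.32. In the interaction 5 of the 16 were called lower.

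The Kv3 list, with Kcnc1 and Kcnc2 among its 4 genes, had 2 genes called lower beside the infarct in vehicle and 4 in HPBCD libraries. In peri-infarct tissue 1 of 4 fell in libraries labelled HPBCD, Kcnc4 (-1.16, edgeR adjusted p = 0.0144). Of 8 Kv1 and Kv beta genes, 4 were called lower beside the infarct in vehicle libraries, Kcnab3 among them, and 4 lower and 2 higher in HPBCD libraries. The lowest adjusted p-value between treatments in peri-infarct tissue was that of Kcna2 (-0.45, edgeR adjusted p = 0.0571). Kcnab2, the most abundant, was at -0.26 (adjusted p = 0.531). Of the other beta subunits, Kcnab1 had 104 ± 78.8 CPM contralaterally and a mean of 108 CPM beside the infarct in vehicle libraries, and was called higher beside the infarct in HPBCD libraries (77.4 to 122 mean CPM, 0.66). Kcnab2 went from 553 to 414 mean CPM between vehicle regions. Of 11 Kv2 and modifier genes, with Kcns3 in the list, 3 were called lower and 1 higher in vehicle libraries beside the infarct, and 8 lower in HPBCD libraries. Kcng4, like Kcns3 a modifier subunit, went from 7.47 to 1.87 mean CPM. Between treatments in peri-infarct tissue 4 of the 11 fell in libraries labelled HPBCD: Kcng1 (-1.07), Kcnv1 (-0.74), Kcnf1 (-1.04) and Kcnb2 (-0.58).

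Of 11 genes of fast vesicle release, 5 were called lower, Syt2 among them, and 1 higher beside the infarct in vehicle libraries, and 10 lower and 1 higher in HPBCD libraries. The sensor Syt1, a paralog of Syt2 used by most forebrain neurons, went from 1674 to 1335 mean CPM, with a log2 fold change of -0.34 (edgeR adjusted p = 0.0752) against -2.07 for Syt2. In HPBCD libraries Syt1 was called lower (1825 to 885 mean CPM, -1.04, adjusted p = 0.000815), against -2.51 for Syt2. Between treatments in peri-infarct tissue 5 of the 11 fell in libraries labelled HPBCD, among them Stx1a (-0.99), Vamp2 (-0.62) and Snap25 (-0.68). Of 11 EF-hand genes tested, 4 were called lower, Pvalb among them, and 2 higher beside the infarct in vehicle libraries, and 6 lower and 1 higher in HPBCD libraries. The related buffers Calb1 (116 and 122 mean CPM in vehicle libraries) and Calb2 (8.38 and 10.96) did not pass the test in either treatment. Between treatments 5 of the 11 fell, among them Hpcal4 (-0.66), Ncald (-1.05) and Calb1 (-0.56), and S100b rose (0.64).

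Among 12 ErbB receptor and ligand genes tested, the lowest edgeR adjusted p-value between vehicle regions was 0.0575 (Btc, a ligand of Erbb4). In HPBCD libraries 5 were called higher and 3 lower. Between treatments in peri-infarct tissue Egfr (0.83) and Erbb2 (0.78) rose and the ligand gene Nrg1 fell (-0.64) in libraries labelled HPBCD. Of 9 perineuronal net genes, 1 was called lower and 2 higher in vehicle libraries beside the infarct: the lower gene, Hapln4, which encodes a link protein, went from 144 to 65.5 mean CPM. In HPBCD libraries 3 of the 9 were called lower and 1 higher. Acan, the aggrecan gene, was at 4.77 and 3.49 mean CPM in vehicle libraries and did not pass the test, and was called lower in HPBCD libraries (6.14 to 3.16 mean CPM, -0.95, edgeR adjusted p = 0.000285). Between treatments 1 of the 9 fell, Ncan (-0.42).

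Genes of other interneurons gave a background for the members. Of 16 markers of other classes, 2 were called lower and 1 higher beside the infarct in vehicle libraries (median -0.19), and 8 lower and 3 higher in HPBCD libraries (median -0.49). In vehicle libraries Sst was at 307 and 260 mean CPM and Vip at 59.2 and 45.2, and neither passed the test, whereas Lamp5 went from 264 to 102 and Npy from 98.6 to 50.7. In HPBCD libraries all 4 were called lower beside the infarct, Sst at -0.53 (edgeR adjusted p = 0.00183) and Vip at -1.47 (adjusted p = 0.000123). Of all genes tested in that comparison, 24.3% were called lower. Between treatments in peri-infarct tissue 5 of the 16 fell in libraries labelled HPBCD, among them Sst (-0.46), Cort (-1.22) and Crh (-1.50), and Sncg rose (1.09). Of 7 genes listed as transcription factors of the medial ganglionic eminence lineage, Mef2c fell (-0.89) and Maf rose (0.76). Whether these changes lay in cells of that lineage was not tested. The list median was -0.45 for the other classes, -0.13 for the shared genes and 0.22 for the lineage transcription factors, beside -0.45 for the 7 members.

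Of the remaining lists, 5 of 12 cortical excitatory genes fell in peri-infarct libraries labelled HPBCD (Nrgn, Emx1, Cux2 and Tbr1 among them, median -0.75), with sums of 5758 to 7148 CPM in vehicle and 2960 to 6110 CPM in HPBCD libraries. The pan-neuronal genes that fell included Tubb3 (-0.72), Syn1 (-0.80), Elavl4 (-0.85) and Stmn2 (-0.68). Of 9 oligodendrocyte genes 2 rose (Mobp and Cldn11, median 0.60), and of 10 reactive astrocyte genes 4 rose (Cp, Vim, Cd44 and Osmr, median 1.07). Of 12 microglia and macrophage genes 1 rose (Mrc1, 1.81), of 8 astrocyte genes 2 (Gja1 and S100b), of 7 oligodendrocyte precursor genes 1 (Bmp4) and of 8 endothelial genes 1 (Cdh5). Of 8 ependymal and choroid plexus genes 5 rose (Rarres2, Foxj1, Folr1 and Ccdc153 among them), and of 7 thalamic genes tested 2 rose (Plekhg1 and Tcf7l2) and Slc17a6 fell. Among 11 striatal genes (median 0.44) Penk was at 0.64 (edgeR adjusted p = 0.285). Their part in the member values was not tested.

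The genes most like Pvalb were then ranked by Pearson correlation of log2 CPM over the 20 libraries, among 14798 genes. As a description, with group differences and composition shared by all points, r was 0.991 for Kcnab3, 0.965 for Syt2, 0.891 for Kcnc1, 0.806 for Kcns3, 0.724 for Kcnc2 and 0.406 for Erbb4. Outside the 7 genes the closest included Stac2 (0.981), Vamp1 (0.979), Atp5f1 (0.976) and Rspo1 (0.968). Stac2 averaged 178 ± 50.9 and 68.1 ± 26.2 CPM in vehicle contralateral and peri-infarct libraries, and 208 ± 11.4 and 45.2 ± 13.3 CPM in HPBCD libraries. Atp5f1, which encodes a subunit of the mitochondrial ATP synthase, moved over a much narrower range, from 208 to 155 mean CPM in vehicle libraries.

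After each group's mean was subtracted, 20 deviations per gene remained. With Pvalb their r was 0.934 for Kcnab3, 0.697 for Syt2, 0.356 for Kcns3, 0.322 for Kcnc1, 0.139 for Kcnc2 and -0.310 for Erbb4. The closest other genes were Stac2 (0.909), Gcnt4 (0.844), Dand5 (0.839), Vamp1 (0.832) and A530058N18Rik (0.829). Over the 21 pairs of members r ran from -0.322 to 0.934 with a median of 0.401. Kcnc1 and Kcnc2 had an r of 0.892, and Kcnc2 and Erbb4 of 0.761. Kcnab3 had an r of 0.52 with Kcnc1 and of 0.50 with Kcns3. Without the 2 libraries farthest from the median of Pvalb, the r of Pvalb was 0.904 with Kcnab3 and 0.509 with Syt2 (0.546 by Spearman's rho over all libraries), so that the value for Syt2 rests in part on those libraries. Libraries of a group differed in depth and, in vehicle contralateral tissue, in striatal genes. In HPBCD contralateral tissue they differed in ependymal and choroid plexus genes. The part of these in the deviations was not tested.

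**Figure D5:**
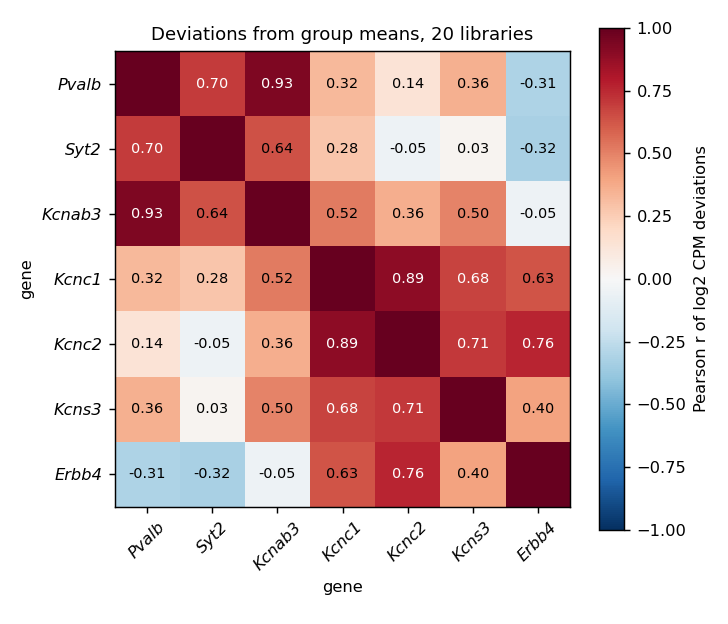
Pearson r of log2 CPM deviations from group means for each pair of the 7 genes over 20 libraries, from blue (negative) to red (positive), with the value written in each cell. Pvalb and Kcnab3 (0.93) and Kcnc1 and Kcnc2 (0.89) are the pairs with the highest values, and Erbb4 is negative with Pvalb and Syt2.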

How the data were processed

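The authors trimmed the reads with Trimmomatic 0.32 after bcl2fastq 2.19, aligned read pairs to GRCm38 with STAR 2.5.2b and counted them per Ensembl gene with HTSeq. The deposited tables, 1 for each library, hold raw counts that were not normalized. Neither the annotation release nor the strand setting is given in the sources used here, so symbols, exon lengths and gene coordinates come from GENCODE M21, which held 97.97% of the listed genes and 99.93% of the counts. The 5 summary lines that name no gene were left out. The pairs without a feature, ambiguous or not unique made up 4.39% to 9.5%, 3.94% to 8.03% and 16.6% to 24.3% of a table. The highest of the first 2 shares were both in HPBCD contralateral replicate 4, and the other libraries were at or under 5.86% and 4.16%. Depth was 14445021 to 22171627 gene counts per library, which covers counting error only.

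Groups were compared by edgeR 4.0.16 (quasi-likelihood F test, R 4.3.3) with TMM factors, the filterByExpr filter and Benjamini-Hochberg adjustment over all genes tested (threshold 0.05). Comparisons of 2 groups used their 10 libraries and the interaction all 20. Intervals of log2 fold changes are 95% and use the t quantile of the fit. CPM are TMM-scaled, and log2 CPM were taken after adding 0.5 CPM. Scripts were tested on simulated data first. Alternatives were DESeq2 1.42.0, limma 3.58.1 voom with quality weights, other scaling factors (also to 12 pan-neuronal genes), other filters, all 4 groups in 1 fit, a replicate block and leaving out each library.

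The members, gene lists and alternatives were chosen with earlier results of these data known. All 7 members were named, with the 5 genes most like Pvalb (mean of at least 1 CPM) by each measure, and up to 4 genes of each list called between treatments in peri-infarct tissue (or the 2 most abundant). Some genes that this rule picks are not reported here. Genes of the lists named with their mean CPM or a difference between regions were chosen after their values were seen. Their p-values between regions are therefore descriptive only. Groups came from the sample titles. Peri-infarct and contralateral libraries of a treatment with the same number carry 1 identifier in the names of their tables, which was taken as the mouse, so the numbers pair the regions. Their deviations correlated with a mean r of 0.112 over 10 pairs (-0.119 to 0.376, 5 over 0.1). Between treatments the mice differ and the number is only a name.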

Additional observations from a re-analysis of the deposited data

Results flagged for a closer look

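Syt2 in HPBCD peri-infarct replicate 5 was at 28.2 CPM, far from the 17.1 to 19.3 CPM of the other 4 libraries of its group. Pvalb and Kcnab3 were also highest in that library, at 29.1 and 28.2 CPM. Kcns3 in HPBCD contralateral replicate 5 was at 11.5 CPM against 8.54 to 9.21 CPM in the other 4. Of the 28 sets of 5 values examined (7 genes in 4 groups) 2 stood out in this way by Dixon's criterion, and chance does this in about 1 of 20. The region difference of Kcnc1 was flagged by its interaction of -0.88 on the log2 scale (edgeR adjusted p = 0.0234). The fit was built from the differences from which the genes were listed, so this p-value supports nothing about the gene. The call was lost with scaling to the pan-neuronal genes.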

How the results depend on the processing

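The counts of members lower beside the infarct follow from their choice and are no sign of stability. The 0 calls between treatments in contralateral tissue held under each alternative. In peri-infarct tissue the count of 0 became 3 with DESeq2, 3 with limma voom, 2 with all 4 groups in 1 fit and 1 with pan-neuronal scaling. Over all genes the calls moved as well, from 3471 to 4719, 6012, 4970 and 10848. The count ran from 0 to 4 when 1 library was left out. The interaction count of 1 became 3 with DESeq2, 4 with limma voom, 2 with RLE factors, 2 with at least 10 counts in every library and 0 with pan-neuronal scaling, where the calls over all genes went from 1577 to 2504, 4110, 1618, 1529 and 11580. It ran from 1 to 4 when 1 library was left out. It was 4 without replicate 3 of vehicle peri-infarct or replicate 2 of HPBCD peri-infarct, where 2851 and 3121 of all genes were called, and 2 without vehicle contralateral replicate 4, HPBCD peri-infarct replicate 4 or 5 or HPBCD contralateral replicate 1, where 2039, 782, 1327 and 1129 were. Over all genes the interaction calls ran from 529 to 3121 when 1 library was left out. With the replicate block, which pairs the regions of a mouse, the counts were 4, 7 and 1 for the region comparisons and the interaction and no call changed (3053, 8860 and 1830 genes over all, against 3195, 8764 and 1577). Between treatments, where the number pairs different mice, the block gave 2 calls in peri-infarct tissue (Kcnc1 and Kcnc2), where 4375 of all genes were called against 3471, and 0 in contralateral tissue.

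Signs changed as follows. Erbb4 between vehicle regions (-0.00072) was 0.11 with limma voom, 0.00059 with upper quartile factors, 0.0893 with library totals only, 0.48 with pan-neuronal scaling, 0.0243 with at least 10 counts in every library, 0.0133 with all 4 groups in 1 fit, 0.0208 with the replicate block, and -0.0778 to 0.148 when 1 library was left out. Pan-neuronal scaling also turned Kcnc2 between vehicle regions (0.11) and Erbb4 between HPBCD regions (0.52). Between treatments in peri-infarct tissue it turned Pvalb (0.33), Kcnab3 (0.19), Kcnc1 (0.0290) and Erbb4 (0.16), and in the interaction Pvalb (0.0603), Syt2 (0.34) and Erbb4 (0.0400). By construction that scaling sets the sum of 12 genes level, and these had a median of -0.25 between vehicle regions and of -0.64 between treatments in peri-infarct tissue. Syt2 between treatments in peri-infarct tissue ran from -0.14 to 0.15 when 1 library was left out, and was -0.11 without replicate 5 of vehicle peri-infarct and -0.14 without replicate 5 of HPBCD peri-infarct. The cause of the other changes was not tested. Depth limits Kcns3 most, at 28 to 203 counts per library.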
